A study of Mus musculus with 51 samples.

Results

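The transcriptome of femurs labelled Tet1 cKO was compared with that of Ctrl femurs, gene by gene and library by library. These 6 RNA-seq libraries, 3 of each group, were taken from the sample labels and are part of 51 samples in a study of vitamin C and epigenetic control of bone. The same table of 25938 genes held 12 Tet femur libraries in all, including 3 Tet2 cKO and 3 Tet1/2 cKO libraries, which entered the model and are used below only where they show how Tet1 cKO differed. All mice were of the C57BL/6 strain, ate a standard diet and were 11 weeks old. Tet1 cKO mice carried Tet1 alleles with both loxP sites (flox/flox) around exon 4 together with Prrx1-Cre, Tet2 cKO mice had floxed Tet2, and Tet1/2 cKO mice had both. Ctrl mice carried Prrx1-Cre with wild-type Tet1 and Tet2, so Cre was present in every group. The study described the RNA samples as biological triplicates from flushed and minced femurs.

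TET1 belongs to the TET enzymes, which oxidise 5-methylcytosine in DNA to 5-hydroxymethylcytosine and further forms, and use vitamin C as a helper. Thymine DNA glycosylase, encoded by Tdg, can cut out the later oxidation products so that an unmethylated cytosine is restored. Prrx1-Cre is active in the early limb mesenchyme, which gives rise to bone, cartilage, tendon and marrow stroma. It is not active in the lineages of muscle fibres or blood cells, so a femur with attached muscle and residual marrow still holds many cells with intact Tet1.

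The values are read counts per gene divided by a size factor for each library, called normalized counts below. The 6 libraries held between 28597536 and 46445221 counted reads. A gene was tested where it reached 10 normalized counts in at least 3 of the 12 libraries, which left 16780 genes. Differences are log2 fold changes of normalized count + 1 from limma, a linear model that shares information on the spread among genes, with Benjamini-Hochberg adjustment over all 16780 genes and a threshold of 0.05.

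Tet1 itself, at chr10:62804570-62887469 on the minus strand, was not lower in the libraries labelled Tet1 cKO. The 3 Ctrl libraries held 374, 420 and 435 normalized counts. The Tet1 cKO libraries held 630, 532 and 773. Every Tet1 cKO library was thus above every Ctrl library, with means of 645 ± 121 (SD, n = 3) against 410 ± 31.7 (SD, n = 3). The log2 fold change was 0.64 ± 0.25 (SE) and did not pass the limma threshold (adjusted p = 1.00, unadjusted p = 0.0288 in the same model). The count covers the whole gene and cannot check the deletion. In the RefSeq transcript of 13 exons, exon 4 at chr10:62838176-62840378 is 2203 bases long, or 15.3% of the summed exon length and 36.0% of the coding sequence, and exon 13 alone makes up 61.6% of the exon length. Reads from the other exons, and from cells in which Cre was not active, are counted alike. "Tet1 cKO" therefore stands below for the libraries that carry this label, and every direction rests on the label.

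Tet2, at chr3:133463677-133545136, and Tet3, at chr6:83362373-83457208, are the other members of the family. Tet2 held 2236, 2512 and 2251 normalized counts in Ctrl and 2433, 2584 and 2524 in Tet1 cKO. Tet3 held 3788, 4653 and 3434 in Ctrl and 3548, 4144 and 4523 in Tet1 cKO. Both groups overlapped for each gene. The log2 fold changes were 0.11 ± 0.17 for Tet2 and 0.045 ± 0.17 for Tet3 (SE), neither past the threshold.

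Only 2 of the 16780 genes passed the threshold in Tet1 cKO against Ctrl (0.0119%), 1 lower and 1 higher, and they are a gene and its copy. Tdg fell and Tdg-ps2, annotated as a transcribed pseudogene of Tdg, rose. At an unadjusted p below 0.05 in the same fit stood 382 genes, or 2.28% of those tested, with 183 higher and 199 lower. The median log2 fold change of all genes tested was -0.0087, and 90.8% of them lay within 1 log2 unit of 0.

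The pair is set side by side here because the assignment of reads between the copies bears on its values. Tdg lies at chr10:82629814-82650799 on the plus strand, and its RefSeq mRNA of 3523 bases has 10 exons. Tdg-ps2 lies at chr10:42052558-42055453 on the minus strand, is annotated as 1 exon of 2896 bases, and has no introns. All 2896 of its bases aligned with the Tdg mRNA, with 18 mismatches and 2 gaps (99.4% identity). Of the 50-base windows of the Tdg mRNA, 61.2% occur unchanged in Tdg-ps2, and 74.7% of the windows of Tdg-ps2 occur in the Tdg mRNA. The 30 coding bases of Tdg exon 10 with the most mismatches are shown with their counterpart in the pseudogene, from the GRCm38.p6 genome, 5′ to 3′ on the strand of each gene. Capitals mark the bases that differ. With positions counted from 1 at the left end, Tdg base first, these are G8A, A14G and G25A.
Tdg, chr10:82648603-82648632, plus strand: agaagcgGcccccAgcgatgttccGaatgg
Tdg-ps2, chr10:42054201-42054230, minus strand: agaagcgAcccccGgcgatgttccAaatgg

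Tdg held 835, 758 and 834 normalized counts in the Ctrl libraries. It held 153, 205 and 155 in the Tet1 cKO libraries, so the groups lay far apart. The means were 809 ± 44.2 and 171 ± 29.8 (SD, n = 3 each), and the log2 fold change was -2.25 ± 0.22 (SE), which is 4.75-fold lower (limma, adjusted p = 0.00858). Tdg-ps2 held 21.1, 37.9 and 27.8 in Ctrl. It held 734, 700 and 827 in Tet1 cKO, again without overlap. Its means were 29.0 ± 8.44 and 754 ± 66.1 (SD, n = 3 each), and it was 25.8-fold higher with a log2 fold change of 4.69 ± 0.49 (SE, limma adjusted p = 0.00858).

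The sum of both genes differed far less. It was 856, 796 and 862 in Ctrl and 887, 905 and 982 in Tet1 cKO, with means of 838 ± 36.5 and 925 ± 50.5 (SD, n = 3 each). The Tet1 cKO sums still lay above the Ctrl sums. Of that sum, Tdg took 95.2% to 97.5% in the Ctrl libraries and 15.8% to 22.7% in the Tet1 cKO libraries. The log2 difference of the sum was 0.14, against -2.25 for Tdg alone. The 2 single values are therefore uncertain as levels of separate transcripts, and whether reads were assigned differently between the copies or each transcript changed was not tested. Both genes lost the call (adjusted p from 0.0698 to 0.0980) when Tet1 cKO replicate 1, Tet1 cKO replicate 3, Ctrl replicate 1 or Ctrl replicate 3 was left out, and kept it without Tet1 cKO replicate 2 or Ctrl replicate 2. Under edgeR, on 11 libraries, the adjusted p of both was 0.131, and under DESeq2 it was 1.02e-12 for Tdg and 9.57e-12 for Tdg-ps2. Over every alternative that treats the genes separately, the log2 fold change stayed between -2.39 and -2.17 for Tdg and between 4.39 and 4.90 for Tdg-ps2. In the fit to the 6 libraries alone, Tdg missed the threshold (limma adjusted p = 0.0804) and Tdg-ps2 passed it (adjusted p = 0.0120).

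The same pattern stood in the Tet2 cKO libraries and not in the Tet1/2 cKO libraries. Tdg held 156, 172 and 223 normalized counts in Tet2 cKO, close to Tet1 cKO, and 928, 790 and 701 in Tet1/2 cKO, near Ctrl. Tdg-ps2 held 689, 912 and 764 in Tet2 cKO and 96.2, 25.9 and 21.1 in Tet1/2 cKO. Tet1 cKO against Tet2 cKO gave log2 differences of -0.10 ± 0.22 for Tdg and -0.058 ± 0.49 for Tdg-ps2 (SE), neither past the threshold. Tet1 cKO against Tet1/2 cKO, groups that both have floxed Tet1, gave -2.24 ± 0.22 (limma adjusted p = 0.0103) and 4.28 ± 0.49 (adjusted p = 0.0210). No gene was called in this comparison without Tet1 cKO replicate 1, Tet1 cKO replicate 3, Tet1/2 cKO replicate 2 or Tet1/2 cKO replicate 3, and 1 gene, lower in Tet1 cKO, without Tet1 cKO replicate 2.

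**Figure D1:**
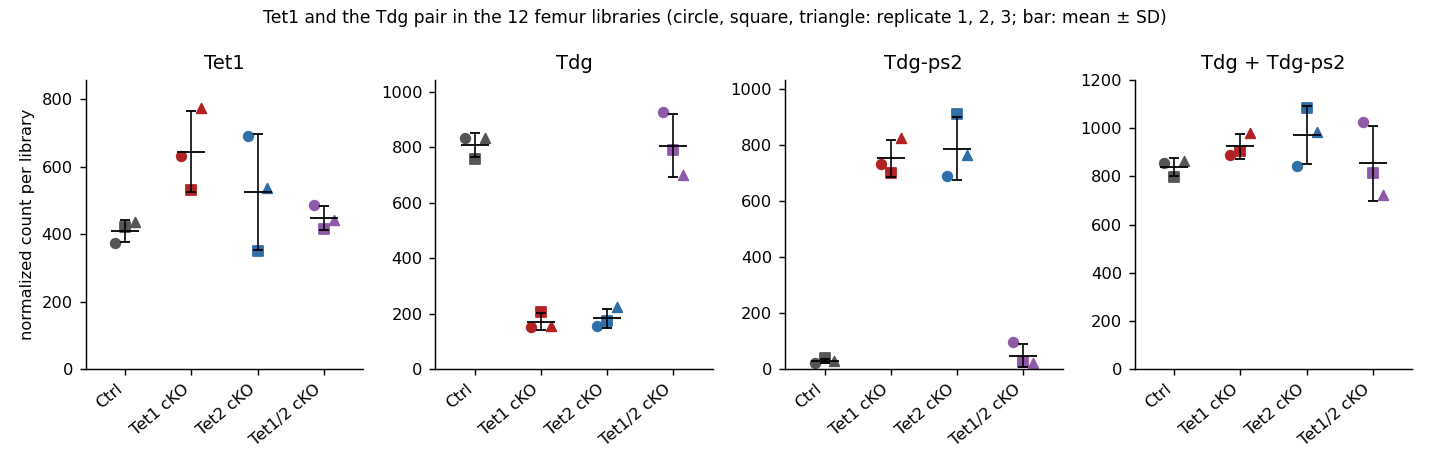
Normalized counts of Tet1, Tdg, Tdg-ps2 and the sum of the last pair in each of the 12 libraries, by group; points are libraries and bars are the mean ± SD. Tet1 is highest in the Tet1 cKO mean (645 against 410 in Ctrl), Tdg and Tdg-ps2 trade places in Tet1 cKO and Tet2 cKO, and the Tet1 cKO sum stays between 887 and 982.

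Chromosome 10, which holds Tet1, Tdg, Tdg-ps2 and Col10a1, did not stand out as a whole. Of its 805 genes tested, 8.20% had groups that did not overlap, 43 higher and 23 lower in Tet1 cKO, beside 7.77% of the 15765 genes placed on other chromosomes. The median log2 fold change was -0.012 on chromosome 10 and -0.0090 elsewhere.

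Over all genes, the 3 Tet1 cKO libraries lay entirely above the Ctrl libraries for 718 genes (4.28%) and entirely below them for 594 (3.54%). Only genes whose groups did not overlap, with a mean of at least 50 in the higher group, were considered next. Those with the smallest unadjusted p were looked at by value, since none but the Tdg pair passed the threshold. On the lower side stood 4 immunoglobulin variable segments, the pseudogenes Gpr137b-ps and Gm6682, and the coding genes Calml3, Akr1c12 and C4b. Calml3, a calmodulin-like protein of epithelia, held 57.1, 252 and 104 normalized counts in Ctrl and 10.9, 11.8 and 4.02 in Tet1 cKO (limma adjusted p = 0.382). DESeq2, run without Tet1 cKO replicate 3, called Calml3 and Gpr137b-ps lower (adjusted p = 0.00234 and 0.00241). C4b, a component of the complement cascade, held 3915, 2733 and 2381 in Ctrl and 599, 1995 and 766 in Tet1 cKO. Gpr137b-ps held 507, 1436 and 568 against 173, 94.3 and 106, while its parent Gpr137b overlapped between groups with a log2 fold change of 0.034. As a copy of an expressed gene, the pseudogene shares the uncertainty of the Tdg pair.

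On the higher side stood the coding genes Zbtb48, Kcnh1, Lrrc75b, Ism1, Zmym1 and Vcan, the small nucleolar RNAs Snord14d and Snord14e, and Gm17388, which had no match in RefSeq. Gm17388 was called higher by DESeq2, run without Tet1 cKO replicate 3 (log2 fold change 1.03, adjusted p = 0.00132). Vcan, a large proteoglycan of loose connective tissue, held 2189, 1276 and 1888 in Ctrl and 4631, 2996 and 8608 in Tet1 cKO, with a log2 fold change of 1.50 ± 0.42 (SE). Zbtb48, a zinc finger protein that binds telomeric repeats, held 360, 397 and 336 in Ctrl and 540, 654 and 665 in Tet1 cKO. Kcnh1, a voltage-gated potassium channel, held 190, 130 and 105 in Ctrl and 366, 299 and 392 in Tet1 cKO. These genes were picked because their groups did not overlap, and the adjusted p was 1.00 in limma for each of the 3 genes.

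**Figure D2:**
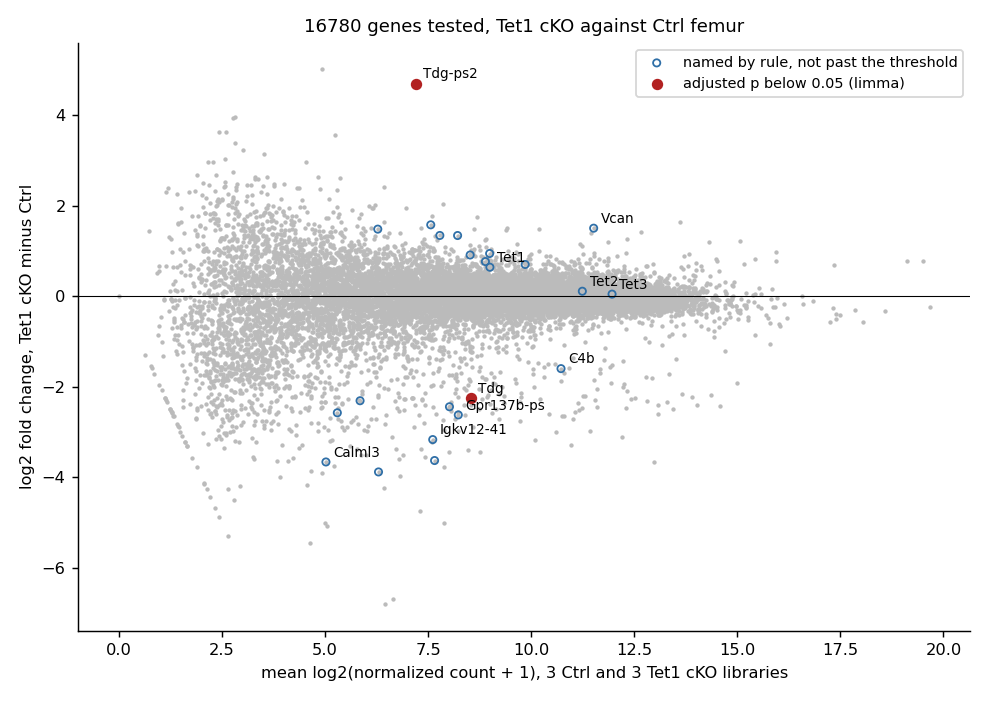
Log2 fold change of Tet1 cKO against Ctrl (y axis) by mean log2 normalized count over the 6 libraries (x axis), 1 point per gene tested. The 2 genes past the threshold, Tdg at -2.25 and Tdg-ps2 at 4.69, are filled; open circles are the other genes chosen by the naming rule, which did not pass.

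The libraries differed widely in which tissues they held, and they did so within each group. In bulk RNA, more cells of a type and more RNA per cell cannot be told apart. The 20 genes of fast muscle fibres took 0.560%, 1.90% and 2.30% of the normalized counts in the Ctrl libraries. They took 4.80%, 0.118% and 0.0396% in the Tet1 cKO libraries. Tet1 cKO replicate 1 was thus the richest of the 6 in muscle and replicates 2 and 3 the poorest. Myh4, the fast myosin heavy chain, held 26060, 69960 and 140700 normalized counts in Ctrl and 360000, 5013 and 2637 in Tet1 cKO. All 20 genes had negative log2 fold changes with a median of -2.29, 0 were called and 0 had groups that did not overlap. The median was -4.45 without Tet1 cKO replicate 1 and -0.85 without Tet1 cKO replicate 3.

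The 10 slow-fibre genes had a median log2 fold change of 0.31, which turned to -1.29 without Tet1 cKO replicate 1 and to -0.22 without Ctrl replicate 1. The 7 satellite cell and myogenic genes had a median of -1.03, with -0.046 without Tet1 cKO replicate 2. None of the 17 genes had groups that did not overlap. The 13 protein-coding genes of the mitochondrial genome moved between libraries as well, at 2.34%, 13.9% and 7.34% of counts in Ctrl and 13.3%, 2.86% and 3.39% in Tet1 cKO. Tet1 cKO replicate 1, the richest in muscle, and Ctrl replicate 2 had the highest mitochondrial shares. The order did not follow muscle throughout, since Ctrl replicate 3 held more fast muscle than Ctrl replicate 2 (2.30% against 1.90%).

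**Figure D3:**
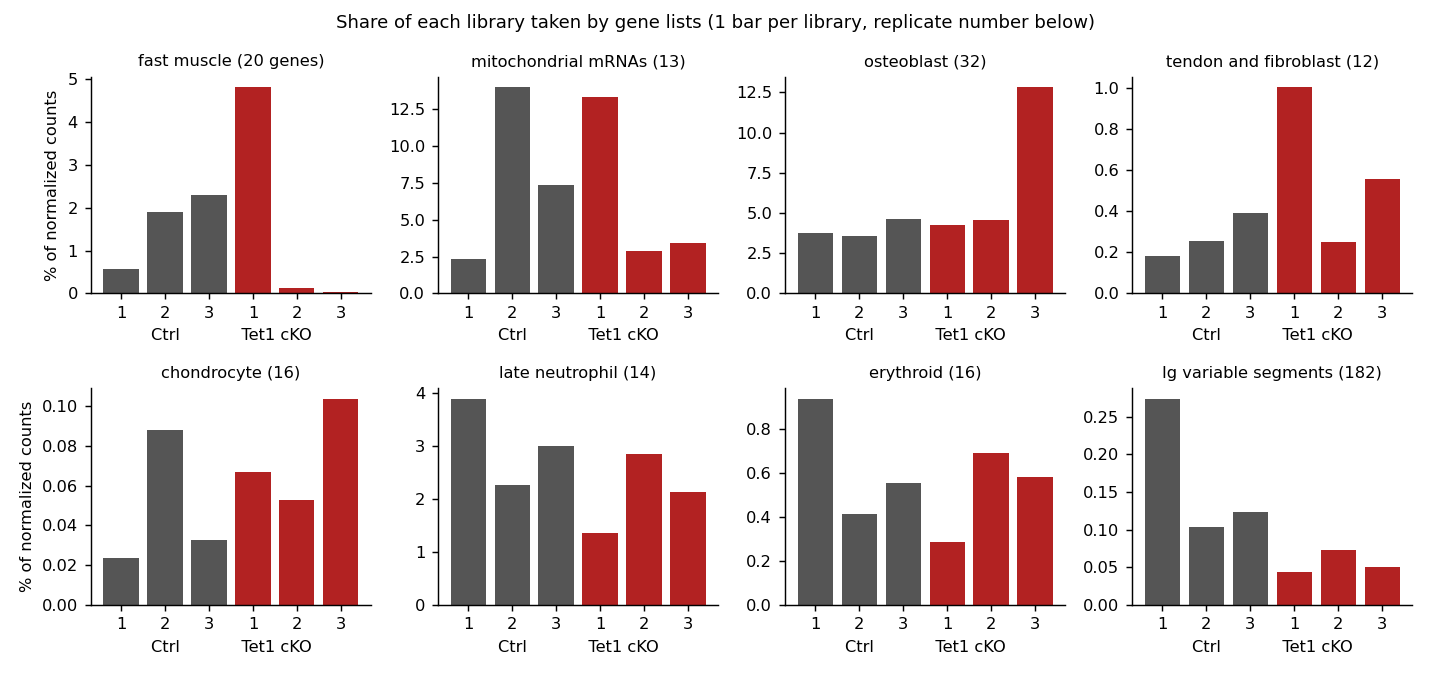
Share of each library's normalized counts, in %, taken by 8 gene lists; each bar is 1 library, grey for Ctrl and red for Tet1 cKO. Fast muscle genes reach 4.80% in Tet1 cKO replicate 1 and stay at 0.0396% in replicate 3, which has the highest osteoblast share (12.8%); of the 8 lists, the groups are apart only for immunoglobulin variable segments.

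Osteoblast genes were dominated by 1 library. The 32 genes of this list, which encode bone matrix and its regulators, took 3.73%, 3.58% and 4.65% of counts in Ctrl and 4.25%, 4.58% and 12.8% in Tet1 cKO. Replicates 1 and 2 thus lay within the Ctrl range and replicate 3 far above it. Col1a1, a chain of type I collagen, held 387600, 415400 and 516500 normalized counts in Ctrl and 511300, 479900 and 1675000 in Tet1 cKO. The log2 fold change of Col1a1 was 0.77 ± 0.85 (SE). Col1a2 held 538500, 495100 and 679500 against 692300, 632500 and 2036000, the same pattern.

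Of the 32 osteoblast genes, 0 passed the threshold, and 2 had groups that did not overlap, both higher in Tet1 cKO (6.25% of the list, beside 4.28% of all genes). Among them Bmp3, a secreted member of the bone morphogenetic protein family, held 1360, 1058 and 1271 in Ctrl and 1540, 1460 and 2786 in Tet1 cKO. Runx2, the master regulator of the lineage, held 3488, 4856 and 4799 against 6196, 3750 and 7187 and overlapped. Spp1, which encodes osteopontin, leaned the other way, at 70970, 115800 and 74240 in Ctrl and 71640, 44100 and 49800 in Tet1 cKO. The median log2 fold change of the list was 0.51, with 0.11 without Tet1 cKO replicate 3, 0.305 without Ctrl replicate 1 and 0.79 without Tet1 cKO replicate 2.

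The 59 genes of the study's own bone list, which was taken from the study and is not independent evidence of a direction, gave 0 calls and a median of 0.21. That median was -0.032 without Tet1 cKO replicate 3, 0.099 without Ctrl replicate 1 and 0.50 without Tet1 cKO replicate 2. On the higher side 2 genes lay apart, Bmp3 among them (3.39% of the list, beside 4.28% of all genes). On the lower side only Mmp9 lay apart (1.7%, beside 3.54% of all genes). The 22 genes of collagen processing had a median of 0.21, with 0.019 without Tet1 cKO replicate 3 and 0.035 without Ctrl replicate 1, and none lay apart. Lox, the enzyme that starts collagen cross-linking, held 4634, 7819 and 6441 in Ctrl and 9192, 6963 and 16220 in Tet1 cKO.

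Osteocyte genes had a median that stayed positive with each of the 6 libraries left out. Their shares of counts overlapped, at 0.042%, 0.052% and 0.048% in Ctrl and 0.032%, 0.055% and 0.094% in Tet1 cKO. Tet1 cKO replicate 1 thus had the lowest share of the 6 libraries and Tet1 cKO replicate 3 the highest. Sost, the osteocyte inhibitor of Wnt signalling, held 720, 200 and 446 normalized counts in Ctrl and 465, 943 and 3360 in Tet1 cKO. Dmp1, a matrix protein of osteocytes, held 7093, 12070 and 7827 in Ctrl and 4928, 8571 and 12520 in Tet1 cKO, with overlap. The 10 genes had a median of 0.50, 0 calls and 1 gene apart, Ptprz1, which was higher (10% of the list, beside 4.28% of all genes). The median was 0.31 without Ctrl replicate 2, 0.33 without Ctrl replicate 1, 0.34 without Tet1 cKO replicate 3 and 0.78 without Tet1 cKO replicate 1. Among 27 genes of the Wnt pathway the median was 0.26 and 0 were called. That median was 0.0085 without Tet1 cKO replicate 1, 0.093 without Tet1 cKO replicate 3, and 0.11 without either Ctrl replicate 1 or Ctrl replicate 2. Only Wnt10a lay apart, on the higher side (3.70% of the list, beside 4.28% of all genes). It held 8.46, 10.8 and 1.55 in Ctrl and 10.9, 25.6 and 16.1 in Tet1 cKO. These counts are low, and Ctrl replicate 2 and Tet1 cKO replicate 1 were nearly equal.

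Osteoclast genes leaned lower, with 1 Ctrl library far above the rest. Acp5, the tartrate-resistant acid phosphatase, held 19200, 67680 and 21630 in Ctrl and 19330, 16180 and 13630 in Tet1 cKO. Ctsk, the bone-resorbing protease cathepsin K, held 22190, 61560 and 24870 against 32560, 19120 and 15940. Ctrl replicate 2 stood above the other libraries for both. The 15 genes had a median of -0.59, and -0.23 without that library. None was called, and only Siglec15 lay apart, on the lower side (6.67% of the list, beside 3.54% of all genes). It held 41.2, 74.5 and 37.9 in Ctrl and 16.4, 9.83 and 11.1 in Tet1 cKO.

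**Figure D4:**
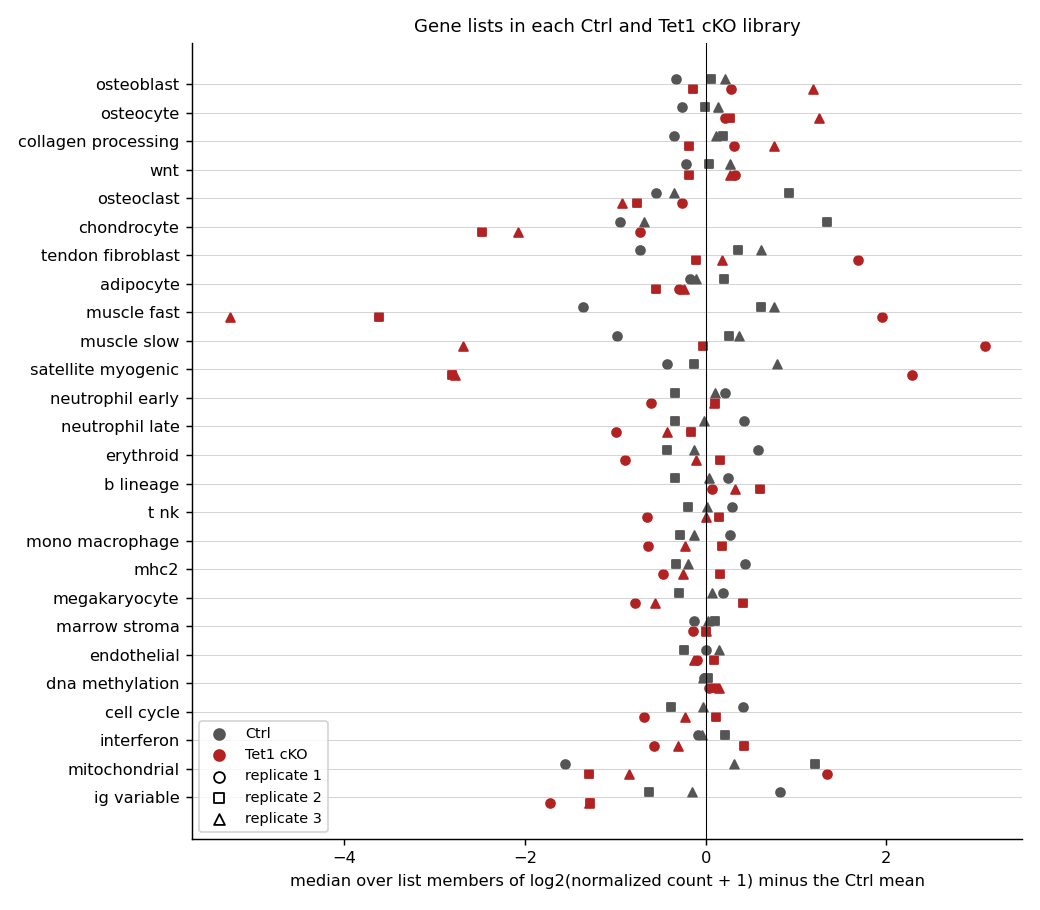
For each gene list, the median over its tested members of log2(normalized count + 1) minus the Ctrl mean, 1 point per library (grey Ctrl, red Tet1 cKO; shapes are replicate numbers). Fast muscle runs from -5.26 in Tet1 cKO replicate 3 to 1.95 in replicate 1, while the DNA methylation list stays between -0.03 and 0.15 in all 6 libraries.

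Cartilage genes differed most between members of 1 list. Col10a1, the collagen of hypertrophic chondrocytes in the growth plate, lies at chr10:34389981-34397085. It held 1377, 1039 and 740 normalized counts in the Ctrl libraries. It held 5.46, 7.86 and 16.1 in the Tet1 cKO libraries. The log2 fold change of Col10a1 was -6.68 ± 1.74 (SE), with an unadjusted p of 0.00265 and an adjusted p of 1.00 in limma. The error is shared by all 4 groups, and Col10a1 held 2.47, 13.7 and 1803 in the Tet2 cKO libraries and 40.4, 15.2 and 7.68 in the Tet1/2 cKO libraries. In the fit to the 6 libraries of Ctrl and Tet1 cKO alone, Col10a1 was the 1 gene called lower (limma adjusted p = 0.0120).

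Of the 16 chondrocyte genes, 15 were tested, 0 were called and 7 lay entirely below Ctrl: Col10a1, Col9a1, Col9a3, Matn3, Ucma, Snorc and Cnmd (46.7%, beside 3.54% of all genes). Col9a1, a chain of the type IX collagen of cartilage fibrils, held 171, 2612 and 141 in Ctrl and 38.2, 17.7 and 58.2 in Tet1 cKO. Cnmd, which encodes the cartilage matrix protein chondromodulin, held 111, 872 and 70.4 against 6.82, 0 and 22.1. Ucma was at 12.7, 24.4 and 27.8 in Ctrl and at 0 in all 3 Tet1 cKO libraries. Snorc was at 16.9, 93.4 and 13.9 in Ctrl and also at 0 in all 3. A count of 0 allows 3 reads, which are worth 2.95 to 4.09 normalized counts in the Tet1 cKO libraries.

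Col2a1, the main collagen of cartilage, went the other way, at 3343, 17870 and 5885 in Ctrl and 19980, 15430 and 34990 in Tet1 cKO. Its groups overlapped and its log2 fold change was 1.65 ± 0.79 (SE). Acan, the aggregating proteoglycan of cartilage, overlapped at 863, 2392 and 708 against 2486, 220 and 1025. Summed, the 16 chondrocyte genes took 0.024%, 0.088% and 0.033% of counts in Ctrl and 0.067%, 0.053% and 0.10% in Tet1 cKO, with overlap. The median log2 fold change, which weighs the 15 genes tested alike, was -2.23. It was the same with Ucma and Snorc set to their detection bound, and -1.23 without Ctrl replicate 2. That library held the highest Ctrl values of Col9a1, Cnmd, Snorc and Col2a1, but not of Col10a1. Whether the growth plate was sampled alike in the femurs of both groups was not tested.

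**Figure D5:**
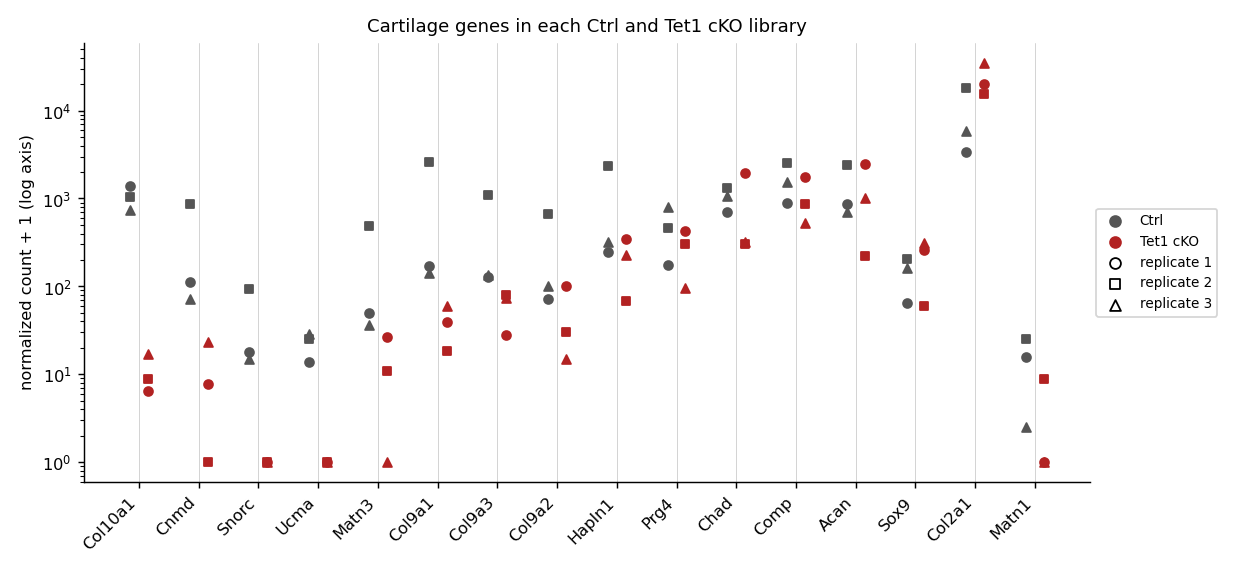
Normalized counts + 1 of the 16 chondrocyte genes on a log axis, 1 point per library (grey Ctrl, red Tet1 cKO; shapes are replicate numbers). Col10a1 lies at 740 or more in all Ctrl libraries and at 16.1 or less in all Tet1 cKO libraries, while Col2a1 overlaps.

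Tendon and fibroblast genes took 0.180%, 0.257% and 0.391% of counts in Ctrl and 1.00%, 0.250% and 0.556% in Tet1 cKO. Col3a1, a fibrillar collagen of soft connective tissue, held 14100, 20470 and 39710 in Ctrl and 166300, 18410 and 47540 in Tet1 cKO. The highest value again belonged to the muscle-rich replicate 1. The median log2 fold change of the 12 genes was 0.50, -0.25 without that library and -0.025 without Ctrl replicate 1, with 0 calls and none apart. The 20 adipocyte genes had a median of -0.37, 0 calls, and 2 genes lower and apart, Lep and Pnpla2 (2 of 20, beside 3.54% of all genes).

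Marrow genes were present in every library. The 14 genes of late neutrophils took 3.89%, 2.26% and 2.99% of counts in Ctrl and 1.35%, 2.84% and 2.13% in Tet1 cKO. S100a9, a calcium-binding protein of neutrophil granulocytes, held 384000, 283400 and 330200 in Ctrl and 176000, 268400 and 230000 in Tet1 cKO. Its groups did not overlap, nor did those of S100a8, Camp, Cxcr2 and Retnlg, all lower in Tet1 cKO (35.7% of the list, beside 3.54% of all genes). None of the 14 was called, with adjusted p at or near 1 in limma. Their median was -0.56, with -0.32 without Tet1 cKO replicate 1 and -0.36 without Ctrl replicate 1. The 6 genes of early neutrophil precursors had a median of -0.16, with 0.099 without Tet1 cKO replicate 1.

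The 16 erythroid genes measured took 0.937%, 0.414% and 0.555% of counts in Ctrl and 0.284%, 0.689% and 0.583% in Tet1 cKO. Slc4a1, the anion exchanger of red cells, held 77730, 30080 and 42250 in Ctrl and 20540, 44160 and 41320 in Tet1 cKO. Groups overlapped for all 16 genes, and the median was -0.25, turning to 0.030 without Tet1 cKO replicate 1 and to 0.015 without Ctrl replicate 1. The late neutrophil and erythroid shares were thus lowest in the library where muscle genes were highest. The 13 monocyte and macrophage genes had a median of -0.28, which was -0.021 without Tet1 cKO replicate 1, -0.12 without Ctrl replicate 1 and -0.51 without Tet1 cKO replicate 2. Of them 1 lay apart (7.69%, beside 3.54% of all genes), Csf1r, the receptor of the macrophage growth factor, at 9675, 11590 and 7639 in Ctrl and 5391, 7108 and 7228 in Tet1 cKO.

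Of 16 B lineage genes, 14 had positive log2 fold changes, and 3 lay entirely above Ctrl (18.8%, beside 4.28% of all genes). Rag1, a recombinase that assembles antigen receptor genes in precursors, held 2807, 2355 and 2052 in Ctrl and 3680, 3974 and 4141 in Tet1 cKO. Rag2 held 335, 443 and 369 against 516, 563 and 723, and Vpreb3 1334, 1314 and 1312 against 1500, 2183 and 1684. Jchain, the joining chain of secreted antibodies, held 16550, 21650 and 16540 in Ctrl and 10210, 11710 and 8406 in Tet1 cKO and was the 1 gene below (6.25%, beside 3.54% of all genes). None of the 16 genes was called. Their median was 0.32, with 0.044 without Ctrl replicate 2, 0.20 without Tet1 cKO replicate 2 and 0.51 without Ctrl replicate 1.

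Variable segments of antibody genes leaned lower. Looked up after their values were seen, 182 variable segments of the heavy and light chains were tested, of which 165 had negative log2 fold changes, 51 lay entirely below Ctrl (28.0%, beside 3.54% of all genes) and 0 lay above. Together they took 0.274%, 0.103% and 0.123% of counts in Ctrl and 0.0442%, 0.0725% and 0.0509% in Tet1 cKO. The median was -1.57, -1.56 with the segments absent from all Tet1 cKO libraries at their detection bound, and between -1.81 and -1.17 with single libraries left out. Ighg2c, the constant region of an IgG class, held 22710, 11880 and 6038 in Ctrl and 2068, 1868 and 2539 in Tet1 cKO. Igkc, the constant region of kappa light chains, held 49610, 41680 and 32470 against 16110, 23880 and 14170. Igha, that of IgA, overlapped at 14780, 11440 and 16640 against 11830, 11410 and 24710. No segment was called by limma unless libraries were weighted, which called Igkv12-41 and Igkv4-57-1 lower. DESeq2, run without Tet1 cKO replicate 3, called both lower (adjusted p = 0.00394 and 0.000295). It also called Ighv1-78, Igkv12-38 and Ighv1-18 lower (adjusted p = 0.00132, 0.00234 and 0.0365). Related segments share reads, so single segments are uncertain. Against the other knockouts the median of the 182 was -0.18 for Tet1 cKO minus Tet2 cKO and -1.36 for Tet1 cKO minus Tet1/2 cKO, whose own Ighg2c values were 1741, 5904 and 5450 and 17030, 14910 and 3256.

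Among 20 genes of DNA methylation and its removal, Tdg was the 1 call. The median of the list was 0.069, and it kept between 0.019 and 0.13 with single libraries left out. Besides Tet1, the genes Ogt, Dnmt3a and Cxxc5 lay above Ctrl (4 of 20, beside 4.28% of all genes), and besides Tdg, Apex1 lay below (2 of 20, beside 3.54%). Dnmt3a, a de novo methyltransferase, held 5065, 5097 and 4679 in Ctrl and 5174, 5524 and 5711 in Tet1 cKO. Ogt, a sugar transferase that binds TET proteins, held 15710, 20180 and 17360 against 23080, 21560 and 20300. Apex1, an endonuclease of base excision repair, held 364, 233 and 302 against 194, 211 and 220.

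Set against the other knockouts, Tet1 cKO differed from Tet2 cKO in 0 genes by limma (0.0%), with 669 at an unadjusted p below 0.05, 0 by edgeR and 15 by DESeq2, and from Tet1/2 cKO in the Tdg pair alone (0.0119%), with 2313 at an unadjusted p below 0.05. Osteoblast genes had a median log2 difference of 0.68 against Tet2 cKO and 1.64 against Tet1/2 cKO. For Col1a1 the difference from Tet1/2 cKO was 2.07 ± 0.85 (SE, limma adjusted p = 0.357). Late neutrophil genes had medians of -0.20 and -1.32 in the same order. By position alone, 869 genes (5.18%) lay entirely above and 485 (2.89%) entirely below Tet2 cKO, and 2027 (12.1%) above and 2223 (13.2%) below Tet1/2 cKO. The list medians describe the libraries and share the Tet1 cKO samples, including the matrix-rich replicate 3.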

How the data were processed

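Femur RNA was sequenced as paired 50-base reads. According to the labels and the study's methods, the authors trimmed reads with Trim Galore 0.4.3.1, aligned them to mm10 with STAR 2.6.0b-1, counted them per gene with featureCounts 1.6.3 and normalized with DESeq2 2.11.40.2. The deposited values are normalized count signal, whole reads divided by a size factor per library; whether counting used strand, and how reads that fit several genes were treated, is not given in the sources used here. Dividing by the smallest step gave whole reads (within 0.1 of a read) for 100% of values in each of the 12 libraries. Tet1 cKO replicate 3 has a step of 1.004, close to 1. Its depth assumes the same step rule, and count tests left it out. The edgeR and DESeq2 results thus rest on the other 11 libraries, without this matrix-rich replicate, and are not a like-for-like check of limma.

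Genes reaching 10 in 3 of 12 libraries were tested with limma 3.58.1 (trend) on log2(normalized count + 1), all 4 groups sharing the spread. Fold changes on this scale understate those of low genes. Alternatives were 3 other scalings, 2 filters, 2 pseudocounts (0.5 and 8), 2 groups only, library weights, a replicate block, muscle or neutrophil level as covariate, edgeR 4.0.16 and DESeq2 1.42.0 on recovered reads, and each library left out. The fit was also run on simulated counts with 200 changed genes. Each gene was drawn independently, without shifts in tissue content between libraries, so the simulation cannot show how the fit handles them. P-values set a difference against the spread between these libraries, which the main fit pools over all 4 groups.

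Gene lists and members were chosen with earlier results of these data known. Named were the Tet genes, up to 10 genes per direction (past the threshold, otherwise by smallest unadjusted p, groups apart and a mean of 50 in the higher group), and from each list the 4 most abundant and any call. All but 1 of the 30 lists, plus 2 added after seeing the data (mitochondrial genes, antibody variable segments), are described by counts and medians. Other list members named lay apart between groups or were chosen after their values were seen. Tdg was aligned to Tdg-ps2 with Biopython 1.88 on RefSeq GRCm38.p6, the same build as mm10; 25260 of 25938 symbols matched RefSeq. Peak lists and the vitamin C data were not used here. The values of 1 list member are not reported here. Shares and limits for counts of 0 cover counting error only.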

Additional observations from a re-analysis of the deposited data

Results flagged for a closer look

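The Tdg pair differed between mice with floxed Tet1 alone and mice with floxed Tet1 and Tet2. The log2 difference between Tet1 cKO and Tet1/2 cKO was -2.24 for Tdg and 4.28 for Tdg-ps2 (limma, adjusted p = 0.0103 and 0.0210), tested directly in the model of all 12 libraries. All 3 Tet1 cKO libraries lay below all 3 Tet1/2 cKO libraries for Tdg and above them for Tdg-ps2. The copies are 99.4% identical over the aligned bases, and the summed count was 887 to 982 in Tet1 cKO and 722 to 1024 in Tet1/2 cKO. The cause was not tested.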

How the results depend on the processing

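In Tet1 cKO against Ctrl, the 2 calls stayed 2 under the 3 other scalings, both filters, both pseudocounts and both covariates. They became 11 with library weights (1 higher, 10 lower), 0 with edgeR and 13 with DESeq2 (3 higher, 10 lower); single libraries left out gave 0 to 4. In Tet1 cKO against Tet2 cKO, limma and edgeR called 0 genes under every alternative, single libraries left out included (0 to 0), and DESeq2 called 15. In Tet1 cKO against Tet1/2 cKO the 2 calls became 0 with only the 2 groups, 1830 with library weights (1060 higher, 770 lower), 0 with the neutrophil covariate, 0 with edgeR and 35 with DESeq2; single libraries left out gave 0 to 2. The causes were not tested. Tet3 changed sign, from 0.045 to -0.0023 with the muscle covariate, -0.065 with edgeR and -0.042 with DESeq2, and ranged from -0.051 to 0.17 with single libraries left out. Replaced by the sum with its copy, an alternative chosen after seeing the data, Tdg went from -2.25 to 0.14.

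With the replicate number as a block, 0 genes were called against Ctrl (332 at an unadjusted p below 0.05), 0 against Tet2 cKO (589) and 0 against Tet1/2 cKO (1966). Same-numbered Ctrl and Tet1 cKO libraries deviated in opposite directions (r of -0.46, -0.24 and -0.098 across genes). Differences in tissue content between libraries enter these values, so they cannot decide whether the numbers pair the samples.

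With 3 libraries a group, the median standard error of a gene's log2 fold change was 0.34.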

Other observations

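The remaining gene lists held no call, and their medians were small and moved with single libraries. Of 20 cell cycle genes, 19 had negative log2 fold changes, with a median of -0.26, which was -0.057 without Tet1 cKO replicate 1, -0.077 without Ctrl replicate 1 and -0.46 without Ctrl replicate 2. Of 16 interferon response genes 14 were negative, with a median of -0.13 that turned to 0.033 without Tet1 cKO replicate 1 and was -0.41 without Tet1 cKO replicate 2. All 11 megakaryocyte genes were negative, with a median of -0.29 that ranged from -0.64 without Tet1 cKO replicate 2 to -0.14 without Tet1 cKO replicate 1. Medians were -0.20 for 7 MHC class II genes (0.00044 without Ctrl replicate 1), -0.16 for 10 T and NK cell genes (-0.0078 without Tet1 cKO replicate 1) and -0.13 for 12 endothelial genes (-0.37 without Ctrl replicate 2, -0.021 without Tet1 cKO replicate 1). They were near 0 for 11 marrow stroma genes (-0.061, and 0.0052 without Tet1 cKO replicate 1) and for 6 Schwann cell genes (-0.011, and positive without any 1 library but Tet1 cKO replicate 2). Immediate early genes, which respond within minutes to handling and stress, were positive for 9 of 10, but their median of 0.16 turned to -0.048 without Ctrl replicate 1 and was 0.49 without Ctrl replicate 2. The 7 glucocorticoid response genes had a median of 0.061, with 0.61 without Tet1 cKO replicate 2. The 17 JmjC histone demethylases tested, enzymes that like TET proteins depend on iron and 2-oxoglutarate, had a median of 0.038 that turned negative without Ctrl replicate 2, Ctrl replicate 3 or Tet1 cKO replicate 2 (-0.049 at the lowest). None of these genes passed the limma threshold.

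Mettl7a2 and Mettl7a3, related members of a methyltransferase-like family, were close to 0 in Tet1 cKO. Mettl7a2 held 27.5, 35.2 and 33.3 normalized counts in Ctrl and 0, 0 and 2.01 in Tet1 cKO. Mettl7a3 held 34.9, 42.0 and 37.9 in Ctrl and 0 in all 3 Tet1 cKO libraries. Mettl7a1, another member, held 1386, 1391 and 1388 in Ctrl and 1639, 1785 and 1793 in Tet1 cKO. In limma, Mettl7a2 and Mettl7a3 passed the threshold only with library weights (adjusted p = 0.0277 and 0.0192). DESeq2, run without Tet1 cKO replicate 3, called Mettl7a2 lower (adjusted p = 0.0152). All members named here were chosen after their values were seen, and as related copies may share reads.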
